A study of Mus musculus with 51 samples.

Results

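The data are RNA-seq profiles of mouse fetal kidney at opposite times of the day, CT24 and CT12, and the question is what changed in the kidney over the last 12 h of embryonic day 18. CT24 is embryonic day 19 by the labels and CT12 is embryonic day 18 plus 12 h. The 8 libraries, 4 at CT24 and 4 at CT12, were taken by the time point in their labels out of 51 libraries that run from CT0 to CT48 in 13 time points. Every kidney came from C57BL/6 fetuses labelled as wild type (WT), with no treatment, transgene or deletion in the labels of either time point. The labels call the libraries biological replicates but name no dam or litter, so fetuses of 1 time point may share a mother, and the p-values measure the spread between these libraries. Over these 12 h clock time and fetal age move together, and their parts in a difference cannot be told apart from CT24 and CT12 alone. CT48 against CT36 repeats the pair of clock times 24 h later in other libraries and is given beside the results.

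The circadian clock is a feedback loop in which the activators CLOCK and BMAL1 (the gene Arntl) switch on their own repressors, the PER and CRY proteins and the REV-ERB receptors Nr1d1 and Nr1d2. The repressors then shut the activators down, and the cycle starts again about once a day. In late gestation the mouse kidney still forms new nephrons from progenitor cells at its rim. Its older nephrons meanwhile gain the transporters of the proximal tubule, loop of Henle and distal tubule, and the proximal tubule comes to depend on fatty acids for fuel.

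Expression is given below as the deposited values, which were normalised and rounded to whole numbers. The 8 library totals lay between 34257605 and 34959399 in this unit, and sequencing depth is unknown. The median standard deviation of a gene between libraries was 0.0631 at CT24 and 0.084 at CT12 (log2 scale). On the first principal component of the 27 libraries of CT0 to CT24, which held 16.4% of the variance, CT24 lay between 7.35 and 16.2 and CT12 between -10.0 and 2.17. CT12 replicate 1 was the CT12 library nearest to CT24 on that axis and had CT24-like levels of several tubule genes, given below. CT12 replicate 4 carries a library number outside the run of the others, which the labels do not explain. Without CT12 replicate 1 the count of changed genes was 3753, and without CT12 replicate 4 it was 3671, against 3692 with all libraries. Without CT12 replicate 2 it was 2598, the lowest with 1 library left out.

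Many genes differed, most of them by small amounts. Of 14336 genes tested with limma (Benjamini-Hochberg adjusted p under 0.05), 3692 changed between CT12 and CT24, or 25.8%. At CT24, 2116 genes were higher (14.8%) and 1576 were lower (11%). The median fold was 1.16 among the genes that rose, and among those that fell the median fold of CT12 over CT24 was 1.11. A change of at least 1.5-fold was reached by 120 genes that rose and 17 that fell, and one of at least 2-fold by 9 that rose. In 3117 genes (21.7%) the 4 CT24 libraries and the 4 CT12 libraries did not overlap, 1871 of them higher at CT24 (13.1%) and 1246 lower (8.69%). Of the 3 steps of 4 h, CT20 against CT16 gave the most changed genes. CT16 differed from CT12 in 175 genes (1.22%), CT20 from CT16 in 1747 (12.2%) and CT24 from CT20 in 229 (1.6%), while CT20 differed from CT12 in 3320 genes (23.2%). The steps were less unequal before adjustment, with 2513, 4016 and 2030 genes at an unadjusted limma p under 0.05 in the same order. CT20 had 3 libraries, and these steps were not refitted with libraries left out. When the libraries of CT28 to CT48, which vary more, shared the estimate of the spread without weights, 912 genes passed. The lists below then kept 12 falls among heat shock genes, 7 rises among fatty acid genes, 8 among proximal tubule genes and 3 among core clock genes, with 6 falls among DNA replication genes and 1 among mitosis genes. They also kept 6 falls among cholesterol genes, 5 among SR genes and 2 in the unfolded protein response, and 5 rises in the loop of Henle and distal tubule, 2 among glucocorticoid genes and 1 among principal cell genes. The clock output and intercalated cell lists kept 0 calls in that limma fit.

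Heat shock proteins and chaperones, which fold other proteins, fell together. Of 23 tested members 16 fell and the other 7 did not pass, with a median log2 difference of -0.19 against 0.01 for all tested genes. In 15 of the 23 every CT24 library lay below every CT12 library, against 8.69% of all tested genes. The largest fall was that of Hsph1, which helps HSP70 chaperones release their clients. The gene lies on chromosome 5 at 149614287 to 149636376, minus strand (ENSMUSG00000029657.15, mm10). Next came Chordc1, a partner of HSP90 on chromosome 9 at 18292125 to 18317442, plus strand (ENSMUSG00000001774.8). The promoters of these 2 genes are shown because they hold paired repeats of the kind that make up heat shock elements, the sites where heat shock factors bind. The sequences are from RefSeq (GRCm38.p6), 250 bases before to 50 bases after the annotated start, 5′ to 3′ on the gene's strand, at chr5:149636287-149636586 and chr9:18292017-18292316. Capitals mark GAANNTTC or TTCNNGAA, searched on both strands, where the patterns may overlap each other.
Hsph1: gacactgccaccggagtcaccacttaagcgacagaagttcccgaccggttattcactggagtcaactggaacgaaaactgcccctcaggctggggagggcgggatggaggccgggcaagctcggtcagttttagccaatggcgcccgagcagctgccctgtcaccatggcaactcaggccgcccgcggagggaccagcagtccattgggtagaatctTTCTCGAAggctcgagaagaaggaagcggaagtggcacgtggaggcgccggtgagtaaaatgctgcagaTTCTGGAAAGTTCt
Chordc1: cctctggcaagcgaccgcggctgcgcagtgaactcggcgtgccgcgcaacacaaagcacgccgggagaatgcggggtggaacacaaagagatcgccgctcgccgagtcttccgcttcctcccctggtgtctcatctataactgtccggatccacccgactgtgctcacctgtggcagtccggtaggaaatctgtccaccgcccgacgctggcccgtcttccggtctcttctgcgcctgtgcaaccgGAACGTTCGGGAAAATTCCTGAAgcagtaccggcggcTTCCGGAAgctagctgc
Hsph1 held 3 such matches in the first of its 2 RefSeq entries, and Chordc1 held 5, most of them in 1 run. Either pattern occurred in 15.1% of all 32851 promoters in the table and in 11 of the 18 heat shock and chaperone genes with an entry. The percentage is per promoter entry and the count is per gene with a match in any entry. Genes with several entries thus had more chances of a match. A match describes these letters and does not show that a factor bound them.

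Hsph1 had values of 2477, 2215, 2293 and 2555 at CT24, against 3102, 4401, 3655 and 3510 at CT12. Every CT24 library lay below every CT12 library, and the log2 difference was -0.61 ± 0.09 (SE, limma adjusted p = 5.06e-05). Chordc1 had 2228, 2075, 1920 and 1962 at CT24, against 2727, 3141, 2514 and 2584 at CT12, again with no overlap (-0.42 ± 0.07, limma adjusted p = 0.000109). Dnaja1, a co-chaperone of HSP70, had 8615, 7694, 8042 and 8133 at CT24, against 10458, 11742, 10028 and 9269 at CT12. Dnaja1 fell by 0.35 ± 0.05 (limma adjusted p = 3.46e-05) and Hsp90aa1, the stress-inducible HSP90, by 0.32 ± 0.05 (limma adjusted p = 3.33e-05). The constitutive HSP70 Hspa8 ranged from 58446 to 63847 at CT24 and from 67762 to 82887 at CT12 (-0.27 ± 0.05, limma adjusted p = 0.000208). The heat-inducible genes Hspa1a and Hspa1b are near-identical copies whose reads may be split between them. Hspa1b passed at -0.25 and Hspa1a did not at -0.11. The factor Hsf1 stood at -0.09, Hsp90ab1, the constant form of HSP90, at 0.01, and the small heat shock proteins Cryab and Hspb1 at 0.08 and 0.09, none of them past the threshold. In most of these genes CT12 replicate 2 was the highest of the 8 libraries, and without it 14 members still fell.

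Chaperones of the endoplasmic reticulum moved the same way. In the stress and unfolded protein response list 7 of 18 genes fell and the rest did not pass (median -0.13). The list was not uniform, as 5 of the 18 had positive differences, up to 0.37. Without CT12 replicate 1, or without CT24 replicate 1, 1 member was called higher. Hspa5, the reticulum's HSP70 and a member of both lists, had 24672, 22794, 23172 and 25226 at CT24, against 28208, 34490, 28890 and 27558 at CT12 (-0.31 ± 0.06, limma adjusted p = 0.000446). Hsp90b1, the reticulum's HSP90, stood at -0.28 ± 0.05, its lectin chaperone Calr at -0.19 ± 0.05 and the co-chaperone Sdf2l1 at -0.34 ± 0.08 (limma adjusted p = 0.000121, 0.00535 and 0.00232).

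Cirbp, a cold-inducible RNA-binding protein (chromosome 10, 80165985 to 80172786, ENSMUSG00000045193.13), went the other way. It had 2533, 3223, 3251 and 2695 at CT24, against 2241, 1561, 1715 and 1726 at CT12, without overlap (0.70 ± 0.15, limma adjusted p = 0.00224). CT12 replicate 1 was the highest CT12 library. Rbm3, its closest relative, had 12648, 13292, 13099 and 12195 at CT24, against 13274, 10559, 9495 and 8863 at CT12. Here CT12 replicate 1 lay among the CT24 libraries, and the rise of 0.30 ± 0.10 (limma adjusted p = 0.0352) did not pass without any of the other CT12 libraries or without CT24 replicate 1, 2 or 3 (adjusted p up to 0.125). Cirbp kept its call without any single library. In the list of 4 temperature-responsive genes 3 rose, and 1 did without CT12 replicate 2, 3 or 4 or CT24 replicate 1, 2 or 3. The third gene, Srsf5, a splicing factor, lost its call without the same 6 libraries (0.14 ± 0.05, limma adjusted p = 0.0449 with all, up to 0.144).

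Splicing factors of the SR family, which mark exons for the spliceosome, fell in 10 of 22 members and rose in 2 (median -0.09). Tra2a, a regulator of exon choice, had 3750, 3282, 3330 and 3594 at CT24, against 4350, 5110, 4068 and 4466 at CT12 (-0.36 ± 0.07, limma adjusted p = 0.00128). Srsf3, Srsf10 and Srsf1 fell by 0.25 ± 0.05, 0.24 ± 0.06 and 0.23 ± 0.04 (limma adjusted p = 0.000526, 0.00312 and 9.94e-05), each without overlap. The members that rose were Srsf5 and the SR protein kinase Clk2 (0.13). The other kinases of that family did not pass, Clk1 at 0.19, Clk4 at 0.10 and Clk3 at 0.01.

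**Figure D1:**
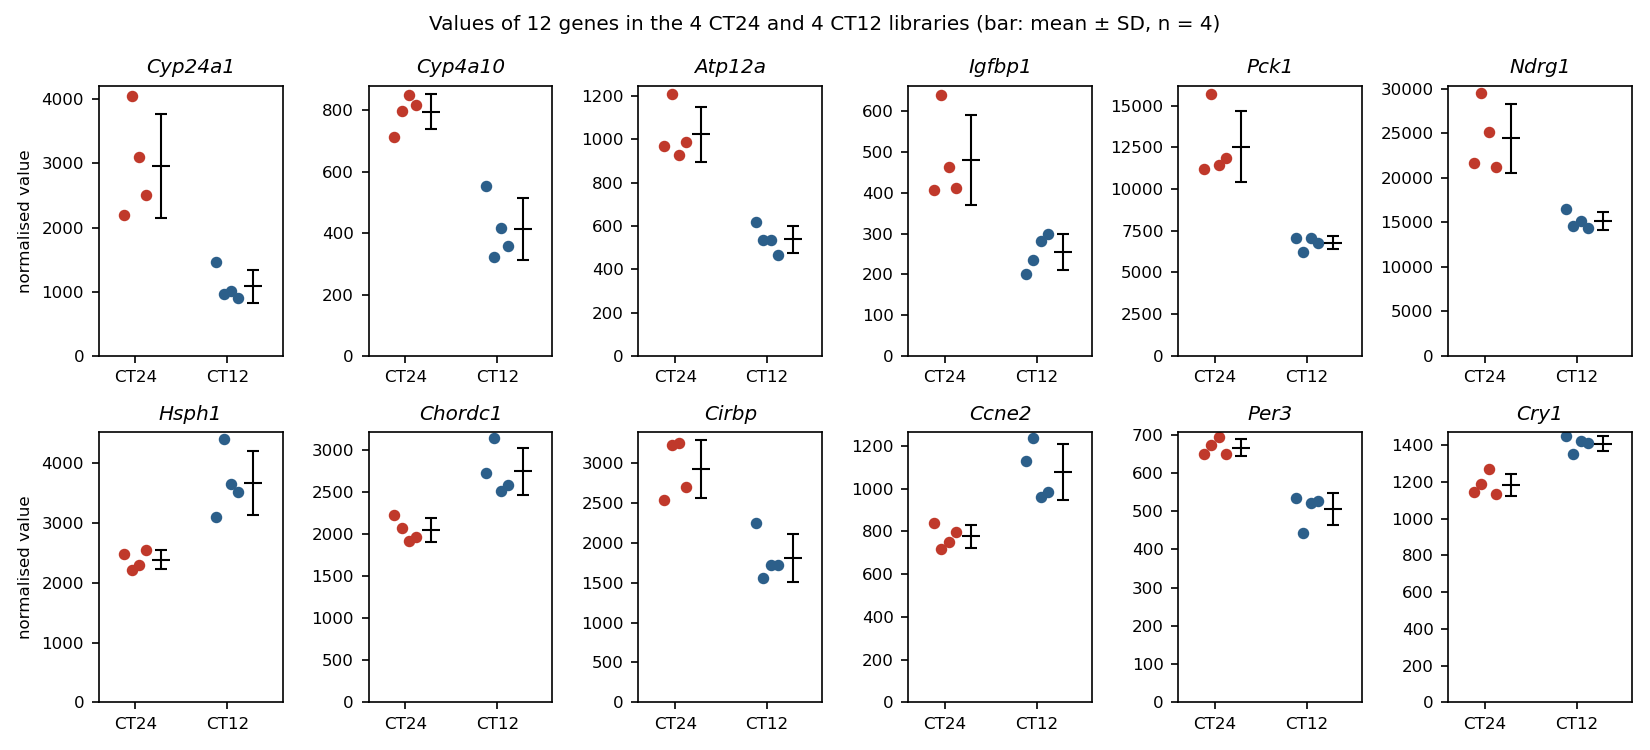
Deposited expression value (vertical axis, arbitrary units, starting at 0 in each panel) of 12 genes in each of the 4 CT24 and 4 CT12 libraries, with points for libraries and bars for the mean ± SD. Hsph1 and Cry1 have every CT24 library below every CT12 library, Pck1 and Cyp24a1 have every CT24 library above, and in Cirbp CT12 replicate 1 (2241) is the CT12 library nearest to the CT24 libraries.

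Among the clock's repressors Per3, Nr1d1 and Nr1d2 were higher at CT24 and Cry1 was lower. Of 19 tested core clock genes 9 rose and 1 fell (median 0.18). In 6 of the 19 every CT24 library lay above every CT12 library, and in 1 below, against 13.1% and 8.69% of all tested genes. The count of genes called rested on single libraries, with 4 genes higher without CT12 replicate 2 and 5 without CT24 replicate 3. The promoters of Per3 and Cry1 are shown because these genes moved in opposite directions and hold motifs through which the clock is known to act. The Per3 promoter (chr4:151044616-151044915, minus strand) has TTATGTAA, a D-box bound by DBP, TEF and HLF, in capitals, and the Cry1 promoter (chr10:85185005-85185304, minus strand) has CACGTG, the E-box bound by CLOCK and BMAL1. Both are from RefSeq (GRCm38.p6), over the same window and 5′ to 3′ on the gene's strand.
Per3: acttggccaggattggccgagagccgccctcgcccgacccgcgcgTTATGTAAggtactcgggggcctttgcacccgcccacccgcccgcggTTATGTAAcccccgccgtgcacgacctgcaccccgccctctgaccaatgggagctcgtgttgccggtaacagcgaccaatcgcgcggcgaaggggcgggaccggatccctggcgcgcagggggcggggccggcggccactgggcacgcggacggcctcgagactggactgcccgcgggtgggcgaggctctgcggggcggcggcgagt
Cry1: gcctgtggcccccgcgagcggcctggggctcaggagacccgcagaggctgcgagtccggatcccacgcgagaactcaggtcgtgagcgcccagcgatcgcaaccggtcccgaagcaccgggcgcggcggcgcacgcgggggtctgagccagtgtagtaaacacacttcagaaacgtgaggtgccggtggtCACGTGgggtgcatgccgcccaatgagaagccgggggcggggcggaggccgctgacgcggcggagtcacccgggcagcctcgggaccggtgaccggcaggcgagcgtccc
Per3 held 2 D-boxes, a motif that occurred on either strand in 0.938% of all promoters and in 1 of 15 core clock genes with an entry. Cry1 held 1 E-box, found in 7.15% of all promoters and in 4 of those 15. Here too the percentages are per promoter entry and the counts per gene with a match in any entry. The matches say nothing of binding in these kidneys.

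Per3, a PER family member (chromosome 4, 151003652 to 151044665, ENSMUSG00000028957.12), had 649, 674, 693 and 648 at CT24, against 534, 444, 522 and 526 at CT12. It rose by 0.40 ± 0.07 (limma adjusted p = 0.000113), the largest change among the core clock genes that passed. Nr1d1, which encodes REV-ERB alpha (chromosome 11, 98767932 to 98775333, ENSMUSG00000020889.11), had 427, 456, 462 and 454 at CT24, against 380, 372, 353 and 356 at CT12 (0.30 ± 0.06, limma adjusted p = 0.000349). Its paralogue Nr1d2 had 1545, 1702, 1606 and 1488 at CT24, against 1476, 1353, 1244 and 1316 at CT12 (0.24 ± 0.06, limma adjusted p = 0.00414). Each of these 3 genes had its time points apart and kept its call without any single library. Nr1d2 did not pass in the limma fit of all 51 libraries without weights (adjusted p = 0.108).

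Cry1, a cryptochrome (chromosome 10, 85131700 to 85185064, ENSMUSG00000020038.10), was the core clock gene that fell. It had 1147, 1188, 1269 and 1135 at CT24, against 1452, 1350, 1420 and 1412 at CT12, a log2 difference of -0.25 ± 0.05 (limma adjusted p = 0.00103). Cry1 kept its call without any single library but not in the limma fit of all 51 libraries without weights (adjusted p = 0.0544). Its partner Cry2 had 908, 884, 984 and 1043 at CT24, against 852, 825, 865 and 913 at CT12. These values overlapped, and the rise of 0.14 ± 0.05 (limma adjusted p = 0.0399) did not pass without CT12 replicate 1, 2 or 3 or CT24 replicate 3 or 4 (adjusted p up to 0.183). Per1 (0.28), the repressor Bhlhe40 (0.28), the activating receptor Rora (0.30) and the F-box gene Fbxl21 (0.31) also passed with all libraries. Per1 and Bhlhe40 did not pass without CT12 replicate 1 or 2 or CT24 replicate 2 or 3 (adjusted p up to 0.145 and 0.107). Rora did not without CT12 replicate 2 or 3 or CT24 replicate 1 or 2 (up to 0.114), and Fbxl21 did not without CT12 replicate 2 or CT24 replicate 3 or 4 (up to 0.153).

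The activators gave no call. Arntl had 672, 676, 756 and 641 at CT24, against 646, 649, 712 and 659 at CT12 (0.04 ± 0.06, limma adjusted p = 0.674), and Clock had 1852, 1968, 1816 and 1842 at CT24, against 2079, 1915, 1844 and 1908 at CT12 (-0.05 ± 0.05, limma adjusted p = 0.454). Both sets of values overlapped. Npas2, a relative of Clock, stood at 0.18 ± 0.09 and Per2 at 0.11 ± 0.07 (limma adjusted p = 0.154 and 0.241). The casein kinases Csnk1d and Csnk1e, which phosphorylate PER proteins, stood at -0.06 and -0.04. Bhlhe41 (0.39 ± 0.16, limma adjusted p = 0.0721) and the weakly expressed Rorb (-0.18 ± 0.19) did not pass either.

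Of 11 clock output genes 6 rose and 1 fell (median 0.16), and 0 passed in the limma fit of all 51 libraries without weights. Dbp, a transcription factor that binds D-boxes, had 419, 462, 452 and 427 at CT24, against 386, 359, 361 and 377 at CT12, without overlap (0.25 ± 0.06, limma adjusted p = 0.00266). Tef and Hlf, of the same family, both rose by 0.18 (limma adjusted p = 0.0041 and 0.0414), Hlf not without CT12 replicate 3 or 4 or CT24 replicate 2 or 3 (adjusted p up to 0.129). Nfil3, their antagonist at the D-box, stood at 0.00 ± 0.06. The deubiquitinase Usp2 rose by 0.28 and Por, the electron donor of cytochromes P450, by 0.16. Wee1, a kinase that delays entry into mitosis, had 1557, 1464, 1592 and 1550 at CT24, against 1624, 1770, 1673 and 1817 at CT12 (-0.16 ± 0.04, limma adjusted p = 0.00407).

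**Figure D2:**
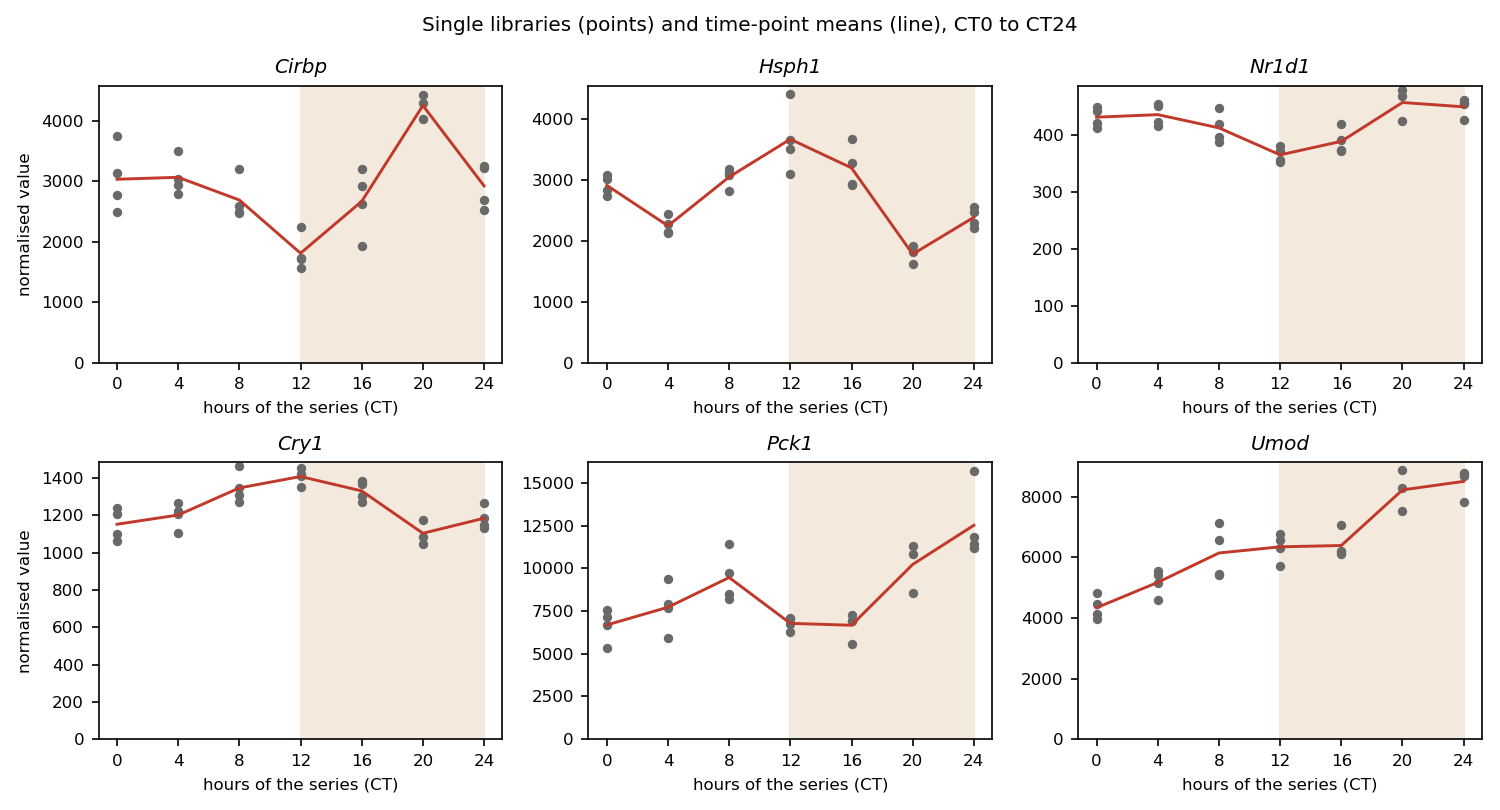
Deposited value (vertical axis, starting at 0) against hours of the series (horizontal axis, CT0 to CT24) for Cirbp, Hsph1, Nr1d1, Cry1, Pck1 and Umod, with points for libraries, a line through the means and the 12 h from CT12 to CT24 shaded. Cirbp is highest and Hsph1 lowest at CT20, not at CT24, and the mean of Umod is higher at each later time point. That of Pck1 is higher at CT8 than at CT12 and climbs again after CT16.

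Genes of fatty acid use rose in nearly the whole list. Of 21 tested members, which comprise enzymes of fatty acid oxidation and targets of the nuclear receptor PPAR alpha, 18 rose and the other 3 did not pass (median 0.25). In 14 of the 21 every CT24 library lay above every CT12 library, against 13.1% of all tested genes. Cyp4a14, an omega-hydroxylase of fatty acids (chromosome 4, 115486200 to 115496142, ENSMUSG00000028715.2), averaged 106.8 ± 38.05 at CT24 and 27.2 ± 9.43 at CT12 (SD, n = 4 each), with the lowest CT24 library at 54 and the highest CT12 library at 40. It was 3.74-fold higher at CT24 (1.90 ± 0.26, limma adjusted p = 2.18e-05). Its close copy Cyp4a10 had 715, 799, 849 and 818 at CT24, against 555, 322, 418 and 359 at CT12 (0.97 ± 0.18, limma adjusted p = 0.000791), and reads of the pair may not be fully separated. Pdk4, which closes the entry of pyruvate into the citric acid cycle, had 576, 693, 716 and 584 at CT24, against 429, 412, 424 and 424 at CT12 (0.60 ± 0.12, limma adjusted p = 0.000878). None of the 3 genes overlapped between time points.

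The gatekeeper of mitochondrial fatty acid import, Cpt1a, ranged from 6765 to 7691 at CT24 and from 5332 to 6380 at CT12 (0.36 ± 0.06, limma adjusted p = 6.59e-05). The peroxisomal enzyme Ehhadh rose by 0.57 ± 0.10 and Vnn1, a PPAR alpha target that breaks down pantetheine, by 0.51 ± 0.12 (limma adjusted p = 0.00024 and 0.0032). Ppara itself, the receptor, had 743, 892, 851 and 822 at CT24, against 669, 679, 708 and 750 at CT12, with only the lowest CT24 library under the highest CT12 library (0.24 ± 0.05, limma adjusted p = 0.00231). Members that did not pass were the long-chain subunits Hadha (0.06) and Hadhb (0.04) and the medium-chain dehydrogenase Acadm (0.07). Without any 1 library, between 15 and 18 members rose.

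Sterol and fatty acid synthesis moved in the opposite direction, with 14 of 21 tested genes lower at CT24 and the other 7 not past the threshold (median -0.17). Idi1, an isomerase of the mevalonate pathway, had 1226, 1101, 1133 and 1086 at CT24, against 1470, 1584, 1398 and 1346 at CT12 (-0.35 ± 0.06, limma adjusted p = 0.000155). Its time points were apart. Insig1, which holds the sterol sensor in the reticulum, and Scd2, a fatty acid desaturase, both fell by 0.34 (limma adjusted p = 0.00166 and 0.00304). Hmgcs1, an early enzyme of the mevalonate pathway, stood at -0.21 and the fatty acid synthase gene Fasn at -0.23, both past the threshold. Without CT12 replicate 2 the count was 9. In Scd2 the values were 38004, 37769, 36589 and 36011 at CT24, against 39201, 50150, 49012 and 50913 at CT12, and CT12 replicate 1 again lay near the CT24 libraries.

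Proximal tubule genes rose in 15 of 28 members, and the other 13 did not pass (median 0.25). In 13 of the 28 every CT24 library lay above every CT12 library, against 13.1% of all tested genes. Because whole kidneys were sequenced, more cells of a type cannot be told apart from more RNA per cell, here and in the lists that follow. Pck1, the rate-limiting enzyme of glucose synthesis (chromosome 2, 173153048 to 173159273, ENSMUSG00000027513.11), had 11176, 15697, 11413 and 11848 at CT24, against 7088, 6249, 7062 and 6736 at CT12. It was 1.83-fold higher at CT24 (0.87 ± 0.15, limma adjusted p = 0.00032) and the highest value was that of CT24 replicate 2. G6pc, which releases free glucose, had 2001, 2319, 2134 and 2205 at CT24, against 1909, 1400, 1351 and 1193 at CT12 (0.59 ± 0.18, limma adjusted p = 0.0235). It did not pass without CT12 replicate 2, 3 or 4 or CT24 replicate 2 (adjusted p up to 0.0678). Slc6a19, the main carrier of neutral amino acids, had 629, 716, 729 and 688 at CT24, against 632, 353, 373 and 342 at CT12 (0.75 ± 0.17, limma adjusted p = 0.00309). Miox, an enzyme of inositol breakdown, had 4064, 4466, 4649 and 4826 at CT24, against 4645, 2290, 2460 and 2334 at CT12. Its rise of 0.68 ± 0.20 (limma adjusted p = 0.0147) did not pass without CT12 replicate 2 (adjusted p = 0.0583). CT12 replicate 1 reached CT24 levels in both Slc6a19 and Miox.

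The amino acid exchangers Slc7a9 and Slc7a7 rose by 0.50 ± 0.08 and 0.39 ± 0.08 (limma adjusted p = 0.000116 and 0.00184). The sodium-phosphate carrier Slc34a1 (0.24), the water channel Aqp1 (0.25), the glucose carrier Slc5a2 (0.26) and the anion carrier Slc22a8 (0.28) also passed. The endocytic receptors Lrp2 and Cubn did not, at 0.09 and 0.07, nor did the transcription factor Hnf4a at 0.07, nor the androgen-regulated Kap at 0.37 ± 0.22. Summed over the list, the CT24 libraries held 260999, 289292, 261875 and 265732 and the CT12 libraries 239832, 226630, 231434 and 232432. The sums were apart, with CT12 replicate 1 the highest at its time point. Without CT12 replicate 1, 16 members rose.

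Genes of the loop of Henle and distal tubule rose in 9 of 16 tested members, and the other 7 did not pass (median 0.19). Trpm6, a magnesium channel, had 302, 406, 328 and 313 at CT24, against 227, 216, 219 and 221 at CT12 (0.60 ± 0.10, limma adjusted p = 8e-05). Umod, uromodulin of the thick ascending limb, had 7833, 8788, 8674 and 8747 at CT24, against 6787, 5705, 6590 and 6316 at CT12 (0.42 ± 0.09, limma adjusted p = 0.00136). Both were apart between time points and kept their calls without any single library. The thiazide-sensitive carrier Slc12a3 rose by 0.39 ± 0.08 (limma adjusted p = 0.00179) and the growth factor Egf by 0.28. The potassium channel Kcnj1 (0.01), the claudins Cldn10 (0.12) and Cldn19 (0.08) and Bsnd, a chloride channel subunit (0.10), did not pass.

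In the collecting duct, principal cell genes rose in 6 of 15 members and fell in 1 (median 0.12). The 3 subunits of the epithelial sodium channel rose, Scnn1a by 0.34 ± 0.08, Scnn1b by 0.24 ± 0.04 and Scnn1g by 0.18 ± 0.04 (limma adjusted p = 0.00384, 4.23e-05 and 0.000918). Scnn1b had 3509, 3511, 3587 and 3580 at CT24, against 3133, 2890, 3037 and 2920 at CT12, and none of the subunits overlapped. The water and glycerol channel Aqp3 rose by 0.17 ± 0.04 (limma adjusted p = 0.0042). Intercalated cell genes, which serve acid and base transport, rose in 4 of 13 (median 0.12), or 31% against 14.8% of all tested genes. But their count was 1 or 2 without CT12 replicate 2, 3 or 4 or CT24 replicate 2, 3 or 4. Car12, a carbonic anhydrase (0.18 ± 0.04, limma adjusted p = 0.00455), kept its call without any single library. Atp12a, a potassium-transporting proton pump, was not in that list but was among the largest rises of all, with 970, 1210, 929 and 987 at CT24, against 619, 535, 537 and 466 at CT12 (0.92 ± 0.10, limma adjusted p = 5.7e-06).

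**Figure D3:**
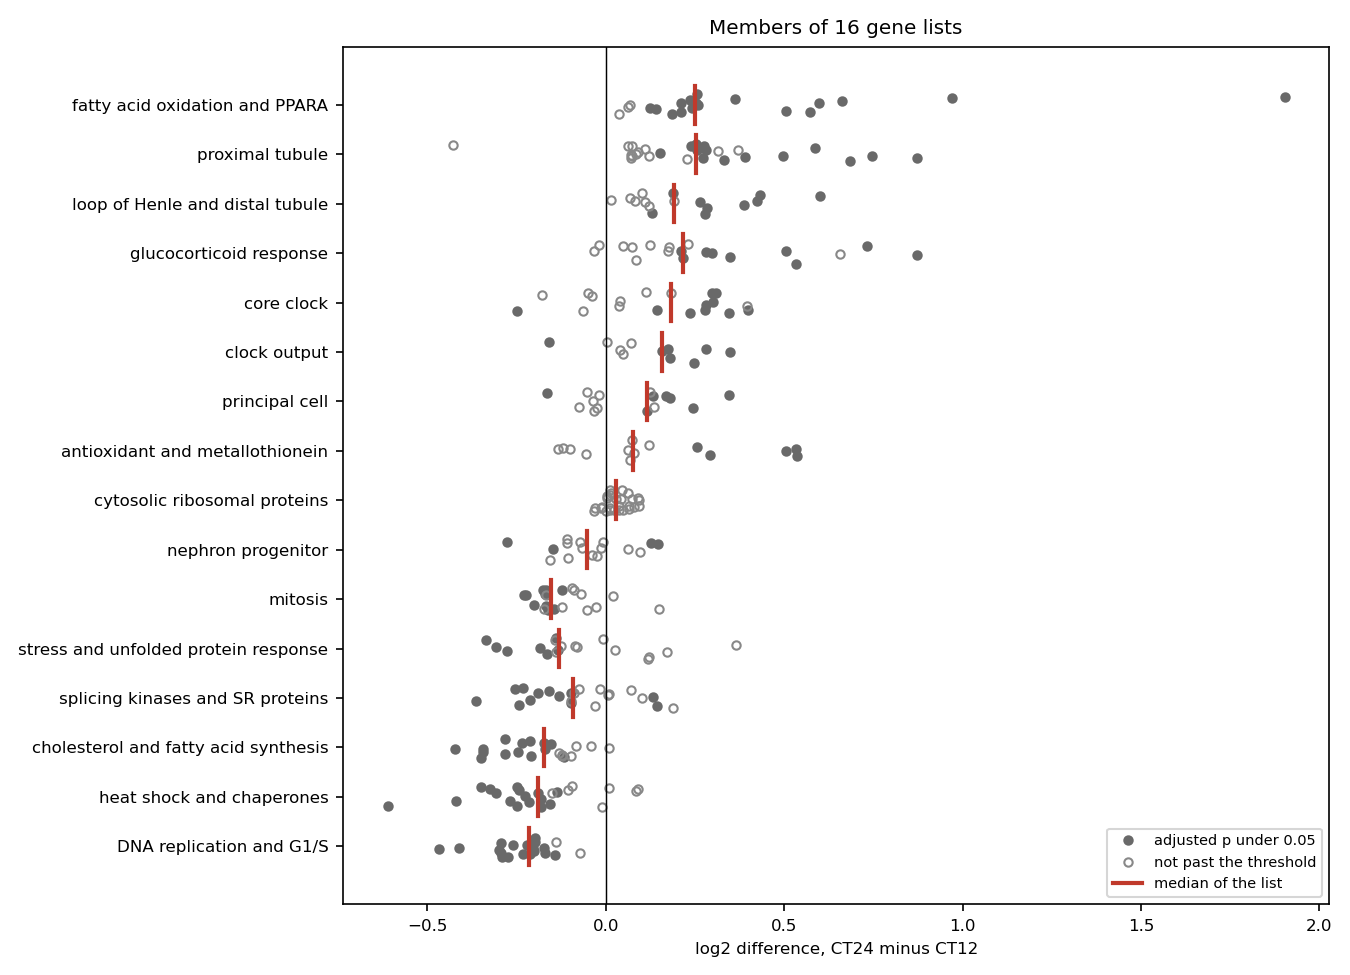
Log2 difference CT24 minus CT12 (horizontal axis) of every tested member of 16 gene lists (rows), with filled points for members past the threshold, open points for the rest and bars at the medians. Fatty acid oxidation (median 0.25) and proximal tubule (0.25) lie to the right of 0, and heat shock (-0.19) and DNA replication (-0.22) lie to the left.

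Genes that copy DNA fell. Of 20 tested DNA replication and G1/S genes 18 fell (median -0.22). In 17 of the 20 every CT24 library lay below every CT12 library, against 8.69% of all tested genes. Ccne2, a cyclin that starts S phase, had 840, 716, 751 and 799 at CT24, against 1132, 1237, 963 and 983 at CT12 (-0.47 ± 0.07, limma adjusted p = 9.56e-05). Cdc6, which loads the replicative helicase, had 616, 530, 608 and 555 at CT24, against 718, 819, 772 and 762 at CT12 (-0.41 ± 0.06, limma adjusted p = 4.22e-05). Pcna, the sliding clamp of DNA polymerase, had 5116, 4415, 4751 and 4770 at CT24, against 6029, 6201, 5592 and 5547 at CT12 (-0.29 ± 0.05, limma adjusted p = 4.71e-05). The helicase subunits Mcm2 to Mcm7 all passed, between -0.29 for Mcm4 and -0.14 for Mcm7, and Cdt1 (-0.14) and Orc1 (-0.07) did not. Without 1 library between 14 and 19 members fell. Mitosis genes fell in 10 of 20 (median -0.15), with overlap in most, and in 6 without CT24 replicate 4. Top2a, which untangles chromosomes, had 9479, 8300, 8699 and 8517 at CT24, against 9251, 10957, 10597 and 10252 at CT12 (-0.23 ± 0.05, limma adjusted p = 0.00147). The checkpoint kinase Bub1 stood at -0.22 ± 0.05 and the proliferation marker Mki67 at -0.14 ± 0.05 (limma adjusted p = 0.000762 and 0.028).

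Of 16 progenitor genes 2 fell and 2 rose (median -0.05), a share near the 25.8% of all tested genes that passed. The count of falls was 3 without CT12 replicate 1 and 1 without CT12 replicate 2, 3 or 4 or CT24 replicate 2 or 3, and that of rises was 1 without CT12 replicate 1 or 4 or CT24 replicate 1 or 2. Six2, which keeps nephron progenitors undifferentiated, had 2277, 2132, 2185 and 2104 at CT24, against 2317, 2657, 2694 and 2890 at CT12 (-0.28 ± 0.07, limma adjusted p = 0.00465), the time points apart by a small margin. The other that fell, Cited1 (-0.15), did not pass without CT12 replicate 2, 3 or 4 or CT24 replicate 2 or 3 (adjusted p up to 0.213). Itga8, an integrin of the progenitor mesenchyme, rose by 0.13 ± 0.03 (limma adjusted p = 0.00779). In the list of the ureteric tip, where the collecting system branches, 0 of 14 passed by limma (2 with an unadjusted p below 0.05), and Emx2 had the smallest p (-0.09 ± 0.04, adjusted p = 0.127).

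In the podocyte list 1 of 16 genes was higher and 2 were lower (median -0.03), so 19% passed against 25.8% of all tested genes. Without CT12 replicate 1 the count of falls was 4, and without any 1 of CT12 replicates 2 to 4 or CT24 replicate 1 or 4 it was 1. Nes, the intermediate filament nestin, had 6146, 5665, 5915 and 6345 at CT24, against 6416, 7092, 6805 and 7460 at CT12 (-0.21 ± 0.04, limma adjusted p = 0.000604), and the scaffold Magi2 rose by 0.21 ± 0.06 (limma adjusted p = 0.0104). Of the type IV collagen chains of the mature glomerular basement membrane, Col4a3 and Col4a4 rose and Col4a5 stood at -0.02 without passing. Col4a3 had 3075, 3759, 3315 and 3216 at CT24, against 2935, 2560, 2804 and 2629 at CT12, and Col4a4 had 3695, 4113, 3675 and 3776 at CT24, against 3267, 3061, 3012 and 3279 at CT12. The differences were 0.29 ± 0.06 and 0.27 ± 0.05 (limma adjusted p = 0.000741 and 0.000199). Of 12 basement membrane genes 3 rose with all libraries (25%, against 14.8% of all tested genes) and 6 without CT12 replicate 4.

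In the stroma list 3 of 16 genes fell and 2 rose (median -0.06), so 31% passed against 25.8% of all tested genes. Rarb, a retinoic acid receptor, had 1753, 1667, 1706 and 1771 at CT24, against 2053, 2065, 2172 and 2096 at CT12 (-0.28 ± 0.04, limma adjusted p = 1.8e-05), and its fall held without any single library. Foxd1, the marker of cortical stroma progenitors, had 764, 786, 771 and 766 at CT24, against 781, 1010, 1004 and 1046 at CT12. The difference of -0.31 ± 0.11 (limma adjusted p = 0.0362) did not pass without any 1 of CT12 replicates 2 to 4 or any 1 of the 4 CT24 libraries (adjusted p up to 0.101). The stroma count of falls was 5 without CT12 replicate 1 and 1 without CT12 replicate 2, 3 or 4 or CT24 replicate 2 or 4. Endothelial genes rose in 1 of 17 (Plvap, 0.11) and smooth muscle genes in 1 of 12 (Rgs5, 0.14, adjusted p up to 0.123 without CT12 replicate 4 or CT24 replicate 1, 2 or 4). These shares of 5.9% and 8.3% lay below the 14.8% of all tested genes that rose. Macrophage genes passed in 0 of 13 in limma (1 with an unadjusted p below 0.05) and collagens outside type IV in 0 of 17 (1 likewise), where the smallest p belonged to Csf1r (0.16, adjusted p = 0.081) and Col6a1 (0.12, adjusted p = 0.13).

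Fetal growth genes fell in 6 of 13 tested members (median -0.12), and in 3 without CT24 replicate 2. Cdkn1c, an imprinted inhibitor of the cell cycle, had 17553, 16357, 16345 and 17988 at CT24, against 19146, 22179, 19826 and 20965 at CT12 (-0.27 ± 0.05, limma adjusted p = 0.00054). The growth factor Igf2 had 39573, 36040, 37429 and 41628 at CT24, against 39750, 47261, 47331 and 48749 at CT12 (-0.24 ± 0.07, limma adjusted p = 0.0129). It overlapped through CT12 replicate 1 and did not pass without CT24 replicate 2 (adjusted p = 0.0503). The imprinted growth inhibitor Grb10 fell by 0.16 ± 0.04 (limma adjusted p = 0.00369).

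Genes known to answer glucocorticoids rose in 9 of 19 tested members (median 0.22), but 3 did without CT12 replicate 2, CT24 replicate 2 or CT24 replicate 3. Angptl4, a secreted inhibitor of lipoprotein lipase, had 540, 634, 622 and 666 at CT24, against 436, 363, 351 and 335 at CT12 (0.73 ± 0.12, limma adjusted p = 0.000229). Pck1 and Per1, described above, belong to this list too. The receptor Nr3c1 stood at -0.03 and the usual response genes Fkbp5 and Tsc22d3 at -0.02 and 0.05, none past the threshold. The metallothioneins Mt1 and Mt2, which bind zinc and copper, rose by 0.51 ± 0.18 and 0.53 ± 0.19 (limma adjusted p = 0.0451 and 0.0429). Mt1 had 1990, 2542, 2664 and 2014 at CT24, against 2336, 1560, 1353 and 1354 at CT12. Mt1 did not pass without CT12 replicate 2, 3 or 4 or CT24 replicate 2 or 3 (adjusted p up to 0.133), nor Mt2 without these or CT24 replicate 4 (up to 0.137). Hsd11b1, which regenerates active glucocorticoid, had 367, 415, 388 and 376 at CT24, against 310, 291, 312 and 299 at CT12 (0.35 ± 0.11, limma adjusted p = 0.0241). It did not pass without CT12 replicate 2 or CT24 replicate 2 or 3 (adjusted p up to 0.0728).

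The antioxidant list rose in 5 of 14 (36%, against 14.8% of all tested genes, median 0.08), and in 3 without CT12 replicate 2, 3 or 4 or CT24 replicate 2 or 3. Gpx3, the plasma glutathione peroxidase made by the proximal tubule, had 79942, 94760, 74286 and 78039 at CT24, against 63884, 54811, 55837 and 50763 at CT12 (0.54 ± 0.11, limma adjusted p = 0.00147). In the hypoxia and glycolysis list 3 of 17 genes were higher (median 0.11), a share near the 14.8% of all tested genes. Among them Ndrg1, a stress- and hypoxia-induced gene, had 21705, 29531, 25150 and 21247 at CT24, against 16543, 14538, 15119 and 14306 at CT12 (0.68 ± 0.10, limma adjusted p = 0.000123). In the renin-angiotensin list 3 of 8 rose (37.5%, against 14.8% of all tested genes), and 1 did without CT12 replicate 1 or 2. Agtr1a, the angiotensin receptor, rose by 0.27 ± 0.06 (limma adjusted p = 0.00162). Oxidative phosphorylation passed in 3 of 20 (15%, against 25.8% of all tested genes), with 2 higher and 1 lower (7 higher and 0 lower by limma without CT12 replicate 1). Interferon-stimulated genes rose in 1 of 20 (0 by limma without CT12 replicate 2 or 3 or CT24 replicate 1, 2 or 3) and immediate early genes in 1 of 18. These shares of 5% and 5.6% lay below the 14.8% of all tested genes that rose. Cytosolic ribosomal protein genes passed in 0 of 27 in limma (2 with an unadjusted p below 0.05, and 3 called without CT12 replicate 1). There Rps16 had the smallest p (0.09 ± 0.04, limma adjusted p = 0.0798).

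Across all genes under the naming rule Cyp24a1 rose most. This enzyme breaks down active vitamin D (chromosome 2, 170482708 to 170497145, ENSMUSG00000038567.5). It had 2197, 4044, 3094 and 2503 at CT24, against 1465, 969, 1013 and 903 at CT12, and was 2.70-fold higher at CT24 (1.43 ± 0.22, limma adjusted p = 0.000155). Behind Cyp4a10 came Kif5a, a motor protein, at 0.94 ± 0.29 (limma adjusted p = 0.0212). Kif5a owed part of its size to CT24 replicate 4 at 174, against 67, 77 and 83 in the other CT24 libraries and 50, 63, 66 and 25 at CT12, and it did not pass without CT24 replicate 4 or CT12 replicate 4 (adjusted p up to 0.0871). Igfbp1, a binding protein of insulin-like growth factors, had 406, 640, 463 and 411 at CT24, against 202, 235, 281 and 299 at CT12 (0.91 ± 0.14, limma adjusted p = 0.000101). The other 6 of the 12 largest rises, beside Atp12a and Pck1, began with Mlph (0.90), Spns3 (0.85) and Il2rb (0.81). Ugt3a1 (0.80), Lrrc29 (0.77) and the mannose and fructose carrier Slc5a10 (0.77) followed. The rule named only genes without overlap. Kif5a and Ugt3a1 did not pass in the fit of all 51 libraries without weights.

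The largest falls were smaller. Hsd3b2, a steroid dehydrogenase with close copies in the genome that may share its reads, averaged 77.0 ± 12.6 at CT24 and 118.2 ± 10.2 at CT12 (SD, n = 4 each), a log2 difference of -0.62 ± 0.12 (limma adjusted p = 0.00054). After Hsph1 came Nanos1, an RNA-binding translational repressor, with 73.2 ± 7.09 at CT24 and 111.8 ± 9.29 at CT12 (-0.60 ± 0.12, limma adjusted p = 0.000866). Lrrc3b (-0.56), Fndc3c1 (-0.53), the glutamate carrier Slc17a8 (-0.48), Cdk5r1 (-0.47), Fbxl22 (-0.47), the transcription factor Creb5 (-0.47), Tnfsf15 (-0.46) and Cap2 (-0.45) followed, beside Ccne2. Lack of overlap was part of the rule that named these 12. None of the 12 lost its call without a single library. In the fit of all 51 libraries without weights Hsd3b2, Nanos1, Slc17a8, Cdk5r1, Fbxl22, Creb5, Tnfsf15 and Cap2 did not pass.

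Whether the last 12 h of the day moved a gene otherwise than the first 12 h was tested as the difference of the steps, CT24 minus CT12 less CT12 minus CT0. CT12 enters both steps with opposite sign, so a chance low or high value there adds to this difference. It passed for 2591 genes (18.1%), higher in 1531 (10.7%) and lower in 1060 (7.39%), and for 1659 without CT12 replicate 2. Zc3h6, a zinc finger gene, had means of 530, 318 and 483 at CT0, CT12 and CT24 (step difference 1.33, limma adjusted p = 1.32e-06). Cirbp had 3036, 1811 and 2926 (1.44, limma adjusted p = 0.000861), and Angptl4 had 541, 371 and 616 (1.27, limma adjusted p = 0.00031). These genes fell between CT0 and CT12 and rose between CT12 and CT24. Heat shock genes had the opposite sign, with 17 of 23 lower in the step difference, and Hsph1 at 2910, 3667 and 2385 in the same order of times (-0.94, limma adjusted p = 0.000233). Core clock genes passed in 6 higher and 2 lower of 19. Nr1d1 had means of 432, 365 and 450 (0.54, limma adjusted p = 0.000333) and Cry1 1152, 1409 and 1185 (-0.54, limma adjusted p = 0.000182).

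Umod had means of 4339, 6350 and 8511 at CT0, CT12 and CT24, rising by 0.55 and then 0.42, and its step difference of -0.13 did not pass (limma adjusted p = 0.605). In the proximal tubule list 3 of 28 passed in the step difference, against 18.1% of all tested genes. Pck1 was among them, with means of 6690, 6784 and 12534 (0.84, limma adjusted p = 0.0249), and did not pass without CT12 replicate 2 or 4 (adjusted p up to 0.0858). At CT8 it ranged from 8204 to 11461, above every CT12 library, so its level was not flat between CT0 and CT12. Fatty acid genes passed in 9 of 21, all higher, with Pdk4 at 567, 422 and 642 (1.02, limma adjusted p = 0.00142). The urea transporter gene Slc14a2 rose before CT12 and did not pass after it, with means of 350, 696 and 679 (-1.04, limma adjusted p = 0.0224), and lost the call without CT12 replicate 3 or 4 (adjusted p up to 0.0784).

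A day later the same pair of clock times, CT48 against CT36, gave 2006 changed genes of 14542 tested (13.8%), with 973 higher (6.69%) and 1033 lower (7.1%). These libraries vary more, with a median standard deviation of 0.135 on the log2 scale against 0.0746 in CT0 to CT24, and the count was 1200 without CT36 replicate 1 and 1270 without CT48 replicate 1. The pairs share no library. Of the 3692 genes that changed between CT12 and CT24, 528 also changed between CT36 and CT48 in the same direction, which is 14.3% of them and 26.4% of the 1999 changed a day later among genes tested in both, and 78 changed in opposite directions. Hsph1 stood at -0.61 for CT24 against CT12 and -1.01 for CT48 against CT36, and Chordc1 at -0.42 and -0.94. Cirbp stood at 0.70 and 0.98, Nr1d1 at 0.30 and 0.52 and Nr1d2 at 0.24 and 0.54. All 5 passed in both pairs (limma adjusted p a day later = 6.13e-05, 3.62e-06, 4.44e-07, 0.00587 and 0.00162). The 5 were not chosen in advance for this pair and do not stand for the other calls, most of which did not repeat.

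The difference between the days was tested directly, as CT24 minus CT12 less CT48 minus CT36, and passed for 1373 of 14426 genes (9.52%), 693 higher (4.8%) and 680 lower (4.71%). Without CT36 replicate 1 or 4 or CT48 replicate 1 or 2 the count was 828, 848, 858 and 860. Library numbers of CT0 to CT24 and of CT28 to CT48 form separate runs, apart from CT12 replicate 4 and CT36 replicate 3. Day and run of library numbers thus move together, and their parts in this difference cannot be told apart. Among core clock genes the difference between the days passed for 3 of 19, among them Cry1 and Cry2. Cry1 had CT24 and CT12 means of 1185 and 1409 but CT48 and CT36 means of 1297 and 1203, log2 differences of -0.25 and 0.11 (difference -0.36 ± 0.12, limma adjusted p = 0.0369). It did not pass without CT12 replicate 3, CT24 replicate 1 or 4, CT36 replicate 1 or CT48 replicate 1 or 3 (adjusted p up to 0.17). Cry2 stood at 0.14 and 0.76 (-0.61, limma adjusted p = 0.000284). In the cholesterol list 5 of 21 passed, with Insig1 at -0.34 and 0.66 (-1.0, limma adjusted p = 5.16e-05). Chordc1 and Tra2a passed at 0.52 and 0.57, with larger falls a day later (limma adjusted p = 0.0129 and 0.0146). Chordc1 did not pass without CT36 replicate 4 (adjusted p = 0.052), nor Tra2a without CT36 replicate 1 (0.0661). By limma 0 of 21 fatty acid genes passed, with 0 also under an unadjusted 0.05, and 0 of 28 proximal tubule genes, with 7 under it. On simulated data this test recovered 14% of changes of size 0.25 and 50% of changes of size 0.5. The lack of calls therefore does not show that the days were alike. The median of the fatty acid list was 0.25 for CT24 against CT12 and 0.14 for CT48 against CT36, and that of the proximal tubule list 0.25 and 0.00. DNA replication genes had medians of -0.22 and -0.02, and 1 of 20 passed, Cdc6, at -0.41 and 0.08 (-0.49, limma adjusted p = 0.0314). Cdc6 did not pass without CT36 replicate 4 or CT48 replicate 2 or 4 (adjusted p up to 0.0998).

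**Figure D4:**
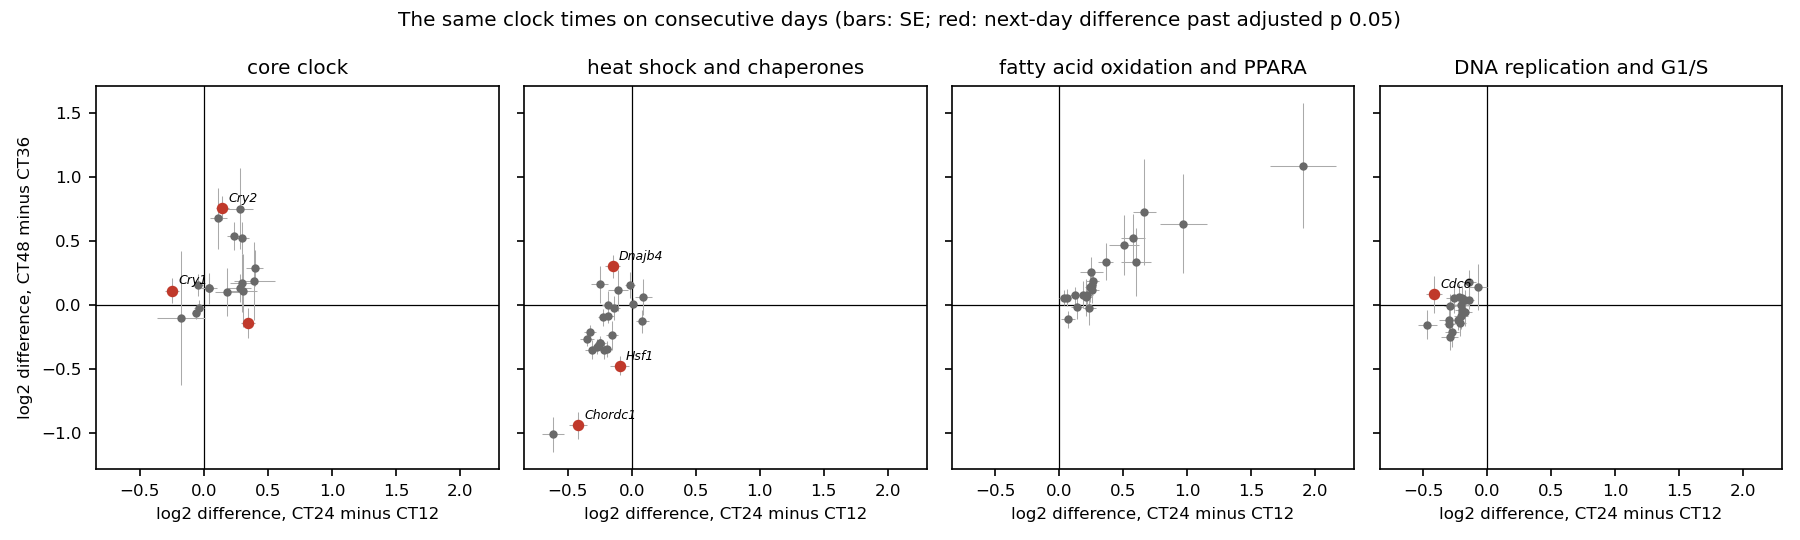
Log2 difference CT24 minus CT12 (horizontal axis) against CT48 minus CT36 (vertical axis) for tested members of 4 gene lists (panels), with red points where the test of the difference between the days passed and bars of 1 SE. Heat shock genes lie mostly below 0 on both axes, Cry1 and Cry2 are red in the core clock panel, and DNA replication genes lie left of 0 but around 0 on the vertical axis.

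Markers of other tissues were read beside these results. Liver genes passed in 2 of 10 (20%, against 25.8% of all tested genes), Fga (0.72) and Apoa2 (0.71), with a list median of 0.63. The median was 0.217 without CT24 replicate 3 and 0.397 without CT24 replicate 4. The summed liver list was 11147, 12166, 13963 and 12812 at CT24, against 11455, 10722, 10025 and 9419 at CT12. Alb, the liver's albumin, varied from 18 to 1224 at CT24 and from 78 to 236 at CT12 and did not pass (0.93 ± 1.19). Skeletal muscle genes summed to between 471 and 514 at CT24, against 518 to 755 at CT12. Of 9 tested members 1 fell (Ryr1, -0.33), a share near the 11% of all tested genes that fell. Adrenal genes summed to 391 in CT24 replicate 4, against 176 to 192 in the other CT24 libraries and 164 to 188 at CT12. Of the adrenal (4), adipose (2), erythroid (4) and gonad and ureter (7) genes tested, 0 passed by limma and 0 had an unadjusted p below 0.05. The part of these markers in the results was not tested.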

How the data were processed

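The authors deposited 1 table named for counts, but its values are treated here as a score, normalised and then rounded to whole numbers. This was read from the values: the totals of the 8 libraries lay within 34257605 to 34959399, and low genes varied less than counting noise (variance 0.782 times the mean at CT24 and 0.86 at CT12). Count tests planned for raw counts could therefore not be used, and the spread between libraries alone gives the precision. Per the labels' protocols, poly-A RNA was made into Illumina TruSeq libraries. The submitters' processing notes name bcl2fastq, STAR (2.5.2b), featureCounts (1.5.0-p3) and the build mm10. The annotation, strand setting and scaling used are not given in the sources. Overlapping genes and close copies are thus uncertain as single genes.

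Limma 3.58.1 in R 4.3.3 was fitted to log2(value + 1) with 1 mean per time point, trend and robust options, and only genes whose mean reached 10 entered. CT24 against CT12 and the step difference used the 27 libraries of CT0 to CT24 (14336 of 16099 genes), and CT48 against CT36 the 24 libraries of CT28 to CT48. The difference between the days used all 51, with weights of 1.79 for CT0 to CT24 and 0.52 for CT28 to CT48. On this scale the change of a weakly expressed gene is understated. A gene was called when its Benjamini-Hochberg adjusted p was below 0.05.

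Named genes are the 12 largest rises and falls among called genes without overlap, with means above 2 parts in 1e6 of the library total. Also named are the tested clock genes, up to 4 called members of each list, and the 6 largest of each sign for the 2 differences. Gene models, X-inactivation genes and Y-linked genes were left out. Other list members were chosen after their values were seen. The libraries, lists and tests were chosen with earlier results of these data known. A few listed genes, among them 1 core clock gene, were not analysed here, and some genes that the rule names are not reported here, though the counts of their lists include them. Some genes stand in more than 1 list. Coordinates are from GENCODE M21 (mm10), in which 15983 symbols were found, and promoters from RefSeq (GRCm38.p6). The fits were tested on simulated data, and alternatives are given at the end.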

Additional observations from a re-analysis of the deposited data

Results flagged for a closer look

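Among the 151 named genes, 13 of 302 groups of 4 libraries held 1 library whose gap to the next, as a share of the group's range, was above Dixon's 95% critical value for 4 samples, and chance gives about 1 in 20. At CT24 the gap share was 0.85 for Kif5a (replicate 4), 0.851 for Pck1 (replicate 2), 0.881 for Umod (replicate 1) and 0.899 for Cycs (replicate 1). At CT12 replicate 1 was the library apart in Miox (0.928), Slc6a19 (0.893), Foxd1 (0.842), Scd2 (0.838) and Igf2 (0.835). CT12 replicate 2 was apart in Per3 (0.867) and Lgals3bp (0.888), and CT12 replicate 4 in Rgs5 (0.842) and Tgm4 (0.902).

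For 21 named genes the CT24 against CT12 difference was not the same as the CT48 against CT36 difference in limma. Those higher in the first pair were Igsf9b (1.47), Dynlt1f (1.30), Cend1 (1.20), Mybpc1 (1.10), Proca1 (1.09), Tra2a (0.57) and Chordc1 (0.52). Those lower were Actg2 (-2.14), Rgs16 (-1.08), Tgm4 (-1.05), Arc (-1.05), Pcdhb21 (-1.02), Insig1 (-1.0), Cry2 (-0.61), Foxd1 (-0.57), Cdc6 (-0.49), Rarb (-0.40), Tef (-0.37), Cry1 (-0.36), Wee1 (-0.35) and Dach1 (-0.28). With 1 library left out at a time, Cry2, Rarb, Insig1, Igsf9b, Proca1 and Arc kept this call. The other 15 lost it without at least 1 library, Foxd1 without 14 of the 16 and Actg2 without 11. Their highest adjusted p was 0.17 for Cry1, 0.138 for Tef, 0.063 for Wee1, 0.052 for Chordc1, 0.0661 for Tra2a, 0.0935 for Dach1, 0.0978 for Foxd1 and 0.0998 for Cdc6. It was 0.0714 for Dynlt1f, 0.149 for Cend1, 0.106 for Mybpc1, 0.18 for Actg2, 0.117 for Rgs16, 0.142 for Tgm4 and 0.0989 for Pcdhb21.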

How the results depend on the processing

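CT24 against CT12 gave 912 genes with all 51 libraries unweighted, against 3692, and 2598 (without CT12 replicate 2) to 3753 with 1 library left out. The step difference gave 426 with all 51 libraries unweighted and 1659 to 2752 with 1 library left out, against 2591. CT48 against CT36 gave 4209 with all 51 libraries unweighted, 3331 with library weights and 1200 to 2115 with 1 library left out, against 2006. The next-day difference gave 2783 with library weights and 828 to 1570 with 1 library left out, against 1373. The causes were not tested. Other filters, pseudocounts, moderation, quantile normalisation and median-ratio scaling kept each count within 1.5 times. The share of calls for CT24 against CT12 that were higher was 57.3%, with 49.2% after quantile normalisation and 49.8% with median-ratio scaling. Libraries of the same replicate number did not deviate together (correlations -0.119, -0.096, 0.0643 and -0.0211). Pairs matched by library number gave -0.119 for replicate 1 of both time points. They gave 0.0157 for CT24 replicate 3 with CT12 replicate 2, and -0.171 for CT24 replicate 4 with CT12 replicate 3. Neither number gave a sign that libraries were paired. With a replicate block 4139 genes passed. Of 118 named genes called, 85 kept the call without any 1 library, 49 in every alternative run, and 0 changed sign in limma. In the fit of all 51 libraries without weights 67 of the 118 lost the call. Uncalled genes near 0 changed sign. With 1 library left out Arntl ranged from -0.00686 to 0.0726, Csnk1e from -0.0718 to 0.00922, Nfil3 from -0.0415 to 0.0452 and Lonrf3 from -0.0364 to 0.173. Nfil3 stood at -0.0320 after quantile normalisation, -0.00929 with median-ratio scaling, -0.0422 with library weights and -0.00228 with a library-number block, Lonrf3 at -0.0575 after quantile normalisation and Csnk1e at 0.00314 with a library-number block.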
